A study of Homo sapiens with 12 samples.

Results

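The proteins of the large ribosomal subunit are encoded by a set of mRNAs that are among the most abundant in a growing human cell, and 53 genes were taken as this set. They were chosen by gene symbol (RPL followed by a number, or RPLP0, RPLP1 and RPLP2) among the 57773 genes of the deposited RNA-seq tables, keeping genes listed as protein-coding. RPL12L3, RPL7AL2 and RPL7AL3 match the symbol but are listed as pseudogenes and were left out. The choice used no measured value. The ribosome is built from a small and a large subunit, and the large one holds the peptidyl transferase centre, where peptide bonds form, and the tunnel through which the new protein leaves. Its proteins are made in the cytoplasm, imported into the nucleolus and assembled there with ribosomal RNA, while their mRNAs are transcribed and spliced in the nucleus and translated in the cytoplasm. Most of these mRNAs are TOP mRNAs: they begin with a C followed by a run of pyrimidines (a terminal oligopyrimidine tract), which is bound by LARP1 and places their translation under the control of the kinase mTOR.

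The study labelled the surroundings of 3 fusions of the peroxidase APEX2 in HEK293 T-REx cells, a human embryonic kidney line with a doxycycline-inducible transgene. The lines expressed V5-APEX2-NES, which carries a nuclear export signal and was used for the cytoplasm, V5-H2B-APEX2, a histone fusion used for chromatin, or Connexin43-EGFP-APEX2, a gap junction protein used for cell contacts, and the parental T-REx line without APEX2 was the negative control. All 4 lines, the control included, were given doxycycline together with 4-thiouridine (16 h), then biotin-phenol (30 min), and went through labelling, ultraviolet crosslinking and streptavidin capture. For each line there was 1 sample of total RNA, 1 of captured (bound) RNA and 1 of RNase-trimmed RNA footprints, 12 in all, each group therefore being a single sample of an inducible stable line. No replicate check or p-value is possible, and every difference below compares libraries, with errors that cover counting only. Bound RNA is bulk RNA: less capture of a transcript and less of it in the labelled place cannot be told apart.

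RNA-seq values were deposited in a table of 2016 and a table of 2017, in reads and in RPKM (reads scaled to the listed gene length in kilobases and to the depth of the library). The bound columns held 8959070 to 22952400 reads and the total RNA columns 32640100 to 56786000. The column names of 2016 name a line and no fraction, and these columns were taken as bound RNA beside the column named total, which names no line. That total column stood apart: 3.50% of its reads were in protein-coding genes, and the members' median level in it was 5.20 RPKM, against 116 to 162 RPKM in the total RNA of 2017. The H2B-APEX2 bound library, present only in the 2017 table, stood apart as well. Protein-coding genes took 60.1% of its reads against 31.9% to 35.7% in the other bound libraries of 2017. In the bound columns of 2016 they took 45.4% (control), 23.3% (APEX2-NES) and 55.3% (Connexin43-APEX2). Over the 53 members, levels in the H2B-APEX2 bound library had a Spearman correlation of 0.54 to 0.64 with the other 6 bound libraries. The 15 pairs of those 6 gave 0.80 to 0.98. The points of these correlations share the genes and their lengths. Among genes with reads, 50.8% of its read values were whole numbers (within 0.0005 reads, after an offset of 0.001 that every value carries), against 73.8% to 78.9% in the other 7 columns of 2017 and 47.4% to 57.4% in the bound columns of 2016. The sources used here do not say whether it was counted in the same way as these columns. Every H2B-APEX2 result below rests on this 1 library, and what sets it apart was not tested.

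Because the tract at the first transcribed bases defines the TOP class, start regions of some members called in each direction in the H2B-APEX2 comparison below are shown first. Each line gives 10 bases before and 20 bases from the RefSeq start site (GRCh38.p14, transcript strand, 5′ to 3′), and the capitals mark the pyrimidine tract. The first 5 are genes of 3 stalk proteins, RPL13 and RPL13A, lower in H2B-APEX2 bound RNA, at chr15:69452808-69452837 (plus strand), chr12:120201092-120201121 (minus strand), chr11:809957-809986 (plus strand), chr16:89560672-89560701 (plus strand) and chr19:49487598-49487627 (plus strand). The other 5 were higher in H2B-APEX2 bound RNA and lie at chr1:6199576-6199605 (minus strand), chr17:8383174-8383203 (minus strand), chrX:101391001-101391030 (plus strand), chr3:40457329-40457358 (plus strand) and chr1:23691796-23691825 (plus strand).
RPLP1: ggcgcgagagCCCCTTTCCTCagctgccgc
RPLP0: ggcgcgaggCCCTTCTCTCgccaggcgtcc
RPLP2: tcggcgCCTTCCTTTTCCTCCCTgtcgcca
RPL13: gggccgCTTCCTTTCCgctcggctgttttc
RPL13A: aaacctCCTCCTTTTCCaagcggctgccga
RPL22: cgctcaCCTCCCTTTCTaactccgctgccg
RPL26: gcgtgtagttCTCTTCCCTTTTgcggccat
RPL36A: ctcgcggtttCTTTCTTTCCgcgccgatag
RPL14: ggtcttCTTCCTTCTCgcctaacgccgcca
RPL11: gctccgCTTTCTCTTCCTgctctccatcat

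These 10 were picked from members with a tract, to show it, so they say nothing of how common it is in either direction. The tract was searched as a C followed by at least 4 bases that are C or T, beginning within 5 bases of the start site on the transcript strand. Of the 53 members, 43 had an entry in the RefSeq promoter table, and 35 of these, or 81.4%, held a tract. Of all 27305 symbols listed there, 6886 or 25.2% held one, and on the opposite strand the shares were 20.9% of the members and 22.3% of all symbols. By the H2B-APEX2 calls below, 15 of 16 members that were lower, 7 of 11 that were higher and 12 of 14 that were not called held a tract at the listed start. The members with an entry but no match were RPL6, RPL7L1, RPL9, RPL10L, RPL15, RPL17, RPL26L1 and RPL27, and a missing match says only that these letters are not in this window. RPL13 has 3 listed starts, and the 1 printed is the 1 with a tract. Among the members without a match RPL6, RPL15, RPL17 and RPL26L1 were higher in H2B-APEX2.

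The members were a smaller part of the protein-coding reads in bound RNA than in total RNA. They took 10.7% to 26.3% of the protein-coding reads in total RNA and 1.98% to 9.09% in bound RNA. Total RNA was depleted of ribosomal RNA and bound RNA was not, and the part of this in the shares given here was not tested. As a share of all reads the order depended on the line: bound and total RNA of 2017 gave 1.06% and 5.04% in the control, 2.35% and 3.27% in APEX2-NES, 3.25% and 3.12% in Connexin43-APEX2 and 3.88% and 2.77% in H2B-APEX2. The bound columns of 2016 gave 0.900% to 2.34%, above the 0.373% of the total column of that year. The 3 members of highest mean bound level were RPL41, which encodes the shortest ribosomal protein, RPL7A and RPL5, whose values follow in the H2B-APEX2 comparison. RPL41 stood in bound RNA at 186 and 135 RPKM in the control (2016 and 2017), 59.7 and 231 RPKM in APEX2-NES, 273 and 201 RPKM in Connexin43-APEX2 and 146 RPKM in H2B-APEX2, and in total RNA of 2017 at 572 to 815 RPKM. RPL7A stood at 137 and 103 RPKM in the control, 54.3 and 172 RPKM in APEX2-NES, 278 and 174 RPKM in Connexin43-APEX2 and 251 RPKM in H2B-APEX2. Both lay below their 2017 total RNA levels in every bound library of 2017, and the APEX2-NES library of 2016 was the lowest bound library for each.

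**Figure D1:**
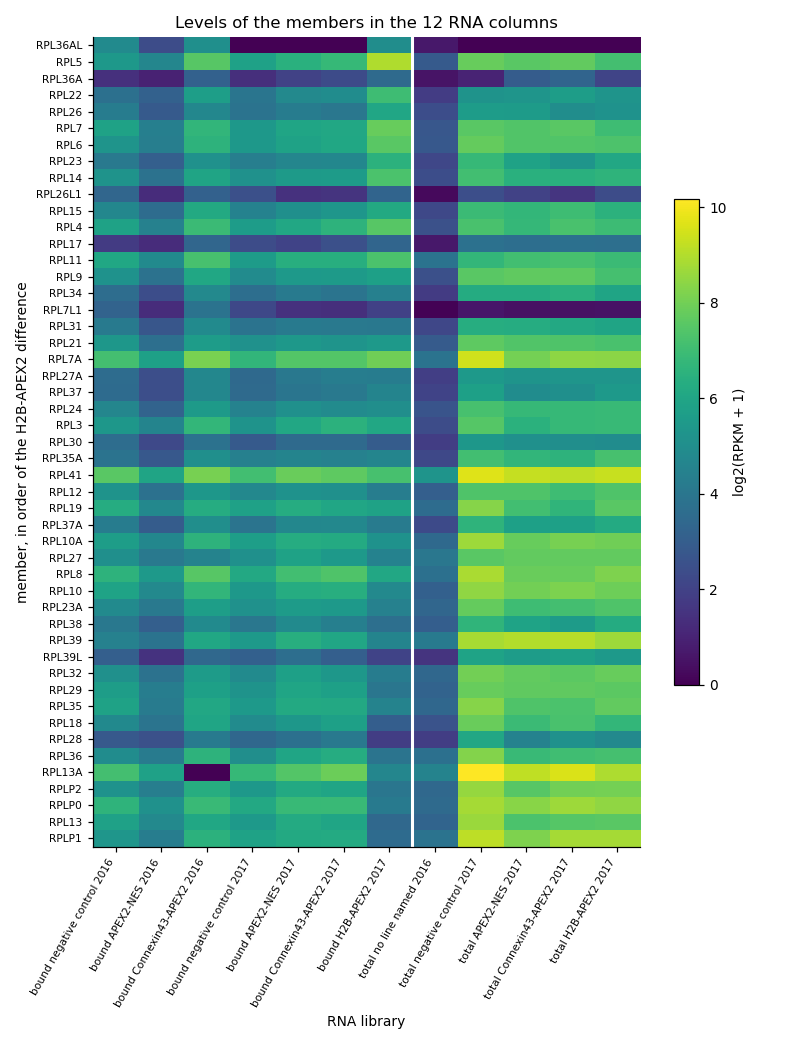
Level of 49 members tested in the H2B-APEX2 comparison, as log2(RPKM + 1) (colour), in the 7 bound RNA columns (left of the white line) and the 5 total RNA columns (right of it), with members in order of the H2B-APEX2 minus APEX2-NES difference. The total RNA columns of 2017 are brighter than the bound columns for most members, the total column of 2016 is dark throughout, and in the H2B-APEX2 bound column the upper rows are brighter and the lower rows darker than in the other bound columns.

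Bound RNA minus total RNA within a line was computed as a difference of log2(RPKM + 1) for genes with a mean of at least 1 RPKM over the 2 libraries, and a gene was called at 2-fold. In the 2017 table the control had a member median of -2.59 beside 0.66 over all genes tested, APEX2-NES -1.41 beside 0.42, Connexin43-APEX2 -1.48 beside 0.18 and H2B-APEX2 -1.93 beside 0.71. Called lower in bound RNA were 46 of 49 members in the control (24.2% of all genes), 36 of 49 in APEX2-NES (21.7%), 32 of 48 in Connexin43-APEX2 (26.7%) and 32 of 50 in H2B-APEX2 (23.8%). Called higher were 1 in the control (42.2%), none in APEX2-NES (34.8%) or Connexin43-APEX2 (25.9%) and 5 in H2B-APEX2 (42.7%). The spread over members was widest in H2B-APEX2, with an SD of 2.12 on the log2 scale against 0.63 to 0.94 in the other 3 lines. Against the total column of 2016 the medians were 2.11, 0.89 and 2.84 in the control, APEX2-NES and Connexin43-APEX2, beside 2.25, 1.52 and 2.28 over all genes, so the sign of this difference for the members was opposite in the 2016 and 2017 data. There 48 of 51 members were higher and none lower in the control (97.6% and 1.06% of all genes), 22 of 47 and none in APEX2-NES (69.8% and 6.34%), and 48 and 1 of 50 in Connexin43-APEX2 (96.6% and 1.53%). A difference of library preparation is built into it, since rRNA depletion was applied to total RNA alone, and its part was not tested.

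In total RNA of 2017, which precedes the capture, the members of the APEX2 lines lay near the control, with medians relative to the median gene of -0.06 in APEX2-NES, 0.05 in Connexin43-APEX2 and -0.23 in H2B-APEX2. RPL36A was the 1 member at least 2-fold higher in each line, at 2.28 in APEX2-NES, 2.69 in Connexin43-APEX2 and 1.23 in H2B-APEX2, where 6.72%, 12.3% and 2.23% of all genes were higher. Its total RNA level was 1.03 RPKM in the control and 6.70, 8.67 and 3.22 RPKM in the 3 lines, which share this control library. At least 2-fold lower were 4, 2 and 2 of 48 members (4.30%, 6.30% and 2.18% of all genes).

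The comparison of chromatin with cytoplasm subtracts the bound minus total difference of APEX2-NES from that of H2B-APEX2 and sets the median gene to 0. Members lay on both sides of the median gene, as genes in general did. Of 50 tested, 14 were at least 2-fold higher in H2B-APEX2 and 20 at least 2-fold lower. Of all 5055 genes tested, 25.1% and 24.9% were. The share of members higher was thus near that of all genes, and the share lower was above it. The members' median was -0.45, with quartiles at -1.53 and 1.14 and an SD of 1.81, beside an SD of 1.65 over all genes. The 33 tested genes of the small subunit proteins gave 4 higher and 19 lower with a median of -1.28. The other 17 TOP mRNAs tested (translation factors such as EEF1A1 and EEF2) gave 8 higher and 4 lower with a median of 0.99, and 19 large subunit assembly factors 7 higher and 2 lower with a median of 0.46. The differences between these lists were not tested.

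**Figure D2:**
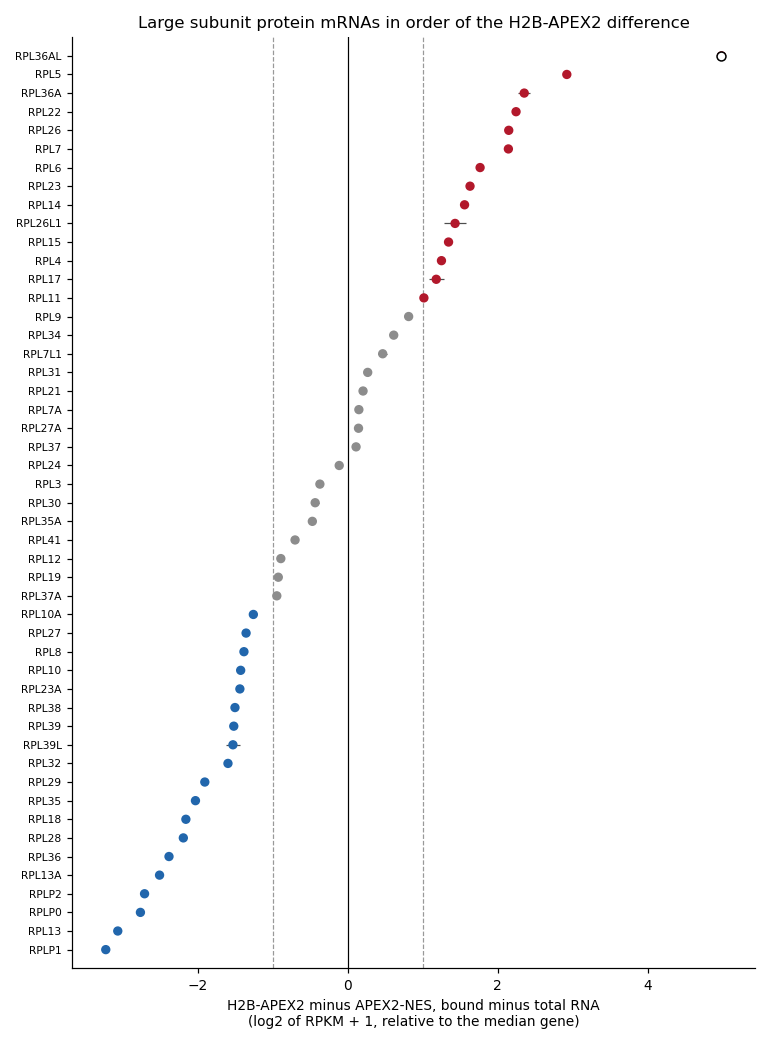
H2B-APEX2 minus APEX2-NES difference of bound minus total RNA for 49 members (log2 of RPKM + 1, relative to the median gene), with red points at least 2-fold higher, blue at least 2-fold lower and grey not called; bars are the counting standard error and dashed lines mark 2-fold. The values run from -3.23 for RPLP1 to 2.92 for RPL5, and the open point at 4.99 is RPL36AL, which had no reads in the 3 other libraries of the comparison.

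At the top of this order stood RPL5, which with RPL11 and 5S rRNA forms the ribonucleoprotein that joins the large subunit during assembly and binds MDM2. RPL5 (hg19 chromosome 1, 93297581 to 93307481) had 42.3 and 56.01 RPKM in control bound RNA of 2016 and 2017, 24.5 and 86.4 in APEX2-NES, 185 and 111 in Connexin43-APEX2 and 499.9 in H2B-APEX2. Its total RNA in 2017 was 139 RPKM in H2B-APEX2 and 186 to 220.0 RPKM in the other 3 lines. H2B-APEX2 bound RNA was above every other library of RPL5, and the difference from APEX2-NES was 2.92 ± 0.02 (counting SE), or 7.58-fold. RPL11 was at 1.02 ± 0.03, just past 2-fold, but at 0.82 in bound RNA alone, which is short of it.

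RPL22, whose protein lies on the surface of the subunit and also binds viral and cellular RNAs, had 12.3 and 14.6 RPKM in control bound RNA, 7.89 and 26.9 in APEX2-NES, 51.3 and 29.9 in Connexin43-APEX2 and 128 in H2B-APEX2, and 36.2 to 49.1 RPKM in total RNA of 2017. Its difference was 2.25 ± 0.03. RPL26, at the rim of the exit tunnel, had 18.4 and 13.5 RPKM in control bound RNA, 6.32 and 18.2 in APEX2-NES, 24.9 and 15.5 in Connexin43-APEX2 and 64.6 in H2B-APEX2, and its difference was 2.15 ± 0.05. For both genes the H2B-APEX2 library was the highest of the 7 bound libraries and did not overlap the other 6.

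RPL7 had 19.9 to 101 RPKM in the other 6 bound libraries and 219.8 in H2B-APEX2, with a difference of 2.14 ± 0.02. RPL36A was a low member: 0.99 to 7.85 RPKM in the other 6 bound libraries, 10.5 in H2B-APEX2, and a difference of 2.35 ± 0.08. Both have many processed copies in the genome whose reads can be exchanged with the gene's own. The tables list 61 RPL7 copies and 18 RPL36A copies, which took 69.7% and 62.1% of the reads of gene and copies together in APEX2-NES bound RNA, and 68.9% and 62.3% in H2B-APEX2. RPL5 has 35 listed copies with 29.03% and 27.2%, and RPL17 has 24 with 83.1% and 67.4%, so the levels of RPL7, RPL36A and RPL17 are uncertain. So are those of RPL21, whose 56 copies took 68.9% and 67.0%, and RPL9, whose 15 copies took 51.5% and 48.7%. The same holds for RPL13A, whose 8 copies took 37.5% in APEX2-NES and 52.6% in H2B-APEX2. It also holds for RPL41 (43.5% and 43.5%), RPL7A (41.0% and 40.9%) and RPL15 (39.8% and 35.2%). Copies of other members took reads as well, such as those of RPLP0 with 31.6% and 30.6%.

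At the other end stood the ribosomal stalk, the flexible arm that recruits translation factors to the ribosome. RPLP1 (hg19 chromosome 15, 69745122 to 69748255) had 39.4 and 56.5 RPKM in control bound RNA of 2016 and 2017, 18.8 and 71.6 in APEX2-NES, 92.1 and 73.3 in Connexin43-APEX2 and 10.8 in H2B-APEX2. Its total RNA in 2017 was 562 RPKM in the control, 294 in APEX2-NES, 445 in Connexin43-APEX2 and 441 in H2B-APEX2. H2B-APEX2 bound RNA was the lowest library for RPLP1 while its total RNA was in the range of the other lines, and the difference was -3.23 ± 0.03, a 9.36-fold lower value.

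RPLP0, the base of the stalk, had 97.4 and 69.6 RPKM in control bound RNA, 34.7 and 115 in APEX2-NES, 116 and 116 in Connexin43-APEX2 and 17.4 in H2B-APEX2, with a difference of -2.76 ± 0.02. RPLP2, the partner of RPLP1, had 19.3 to 79.2 RPKM in the other 6 bound libraries and 14.7 in H2B-APEX2, with a difference of -2.71 ± 0.04. RPL12, which lies at the foot of the stalk, was not called at -0.89 ± 0.04. Thus 3 of the 4 stalk genes were lower and none was higher.

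RPL13 had 26.9 to 72.4 RPKM in the other 6 bound libraries and 9.68 in H2B-APEX2, with a difference of -3.07 ± 0.03. RPL13A, whose protein also takes part in a translational silencing complex after interferon, was at -2.51 ± 0.03. In both genes H2B-APEX2 lay below the other bound libraries of 2017. Over the 8 proteins of the exit tunnel wall and rim 3 were higher (RPL4, RPL17 and RPL26) and 3 lower (RPL23A, RPL35 and RPL39), and over 5 proteins around the peptidyl transferase centre or joining late none was higher and 3 were lower (RPL8, RPL10 and RPL29). RPL3, the core protein of that centre, was at -0.37 and RPL24 at -0.11.

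How many members were called, and the sign of their median, depended on which library stood for the cytoplasm. Relative to the median gene, the bound library of 2016 minus that of 2017 had a member median of -0.82 in APEX2-NES, -0.78 in Connexin43-APEX2 and -0.68 in the control. In bound RNA alone, H2B-APEX2 against the APEX2-NES library of 2017 gave 13 members higher and 20 lower with a median of -0.34 (22.8% and 21.5% of all genes). Against the APEX2-NES library of 2016, a comparison made after seeing the data, 18 were higher (1062 of 5308 genes) and 10 lower (18.3% of all genes), with a median of 0.34. Of the 34 calls above, 24 were kept there, and none of the 34 members took the opposite sign. Against each of the other 6 bound libraries at once, 8 of 50 members were at least 2-fold higher in H2B-APEX2, namely RPL5, RPL6, RPL7, RPL14, RPL22, RPL23, RPL26 and RPL26L1 (13.8% of all genes), and 2 were lower, RPL13 and RPLP0 (5.38%).

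The order of the members in this comparison followed the GC content of their transcripts. Over 50 members Pearson's r between the difference and the GC content of the longest protein-coding transcript (GENCODE 29, GRCh38) was -0.68, and over 2847 protein-coding genes it was -0.58. These points share the libraries. The median GC content was 45.1% in the 14 members that were higher and 54.5% in the 20 that were lower. In the range of 44% to 48% GC, 15 members had a median of 1.25 where 484 other protein-coding genes had 0.65, and at 56% or more, 10 members had -2.09 where 754 others had -1.08. RPLP1 left the trend: at 47.7% GC it was the lowest member. With the GC trend of protein-coding genes removed, 9 members were higher instead of 14, and 20 were lower as before. Of the 34 calls, 26 were kept in the same direction. The share of all genes called in that setting was not counted. Whether GC content plays a part was not tested beyond this.

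**Figure D3:**
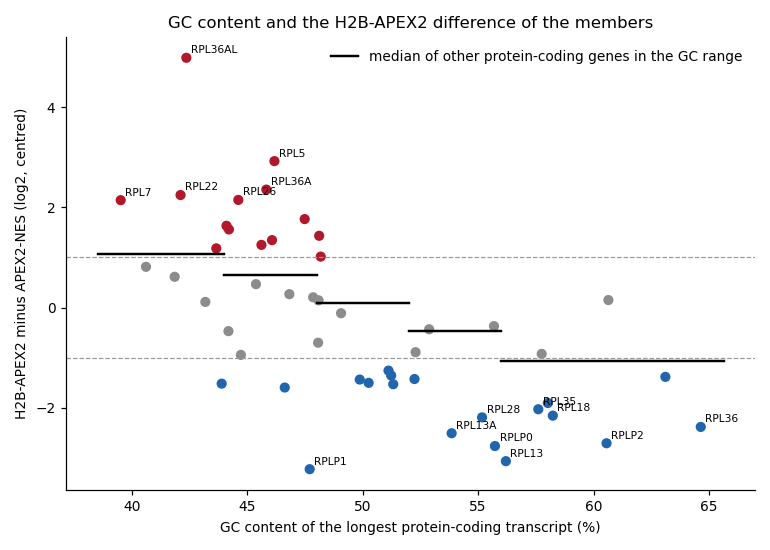
GC content of the longest protein-coding transcript (%, horizontal axis) against the H2B-APEX2 minus APEX2-NES difference (log2, centred on the median gene) for 49 members, in red where at least 2-fold higher, blue where at least 2-fold lower and grey otherwise; black bars are the medians of the other protein-coding genes in 5 GC ranges chosen after seeing the data, with 7 to 15 of the 50 tested members in each. Members slope down from left to right as other genes do, with RPLP1 at 47.7% GC and -3.23 apart from its neighbours.

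Connexin43-APEX2 minus APEX2-NES, the comparison of cell contacts with the cytoplasm, gave no member called of 50, where 0.197% of all 5594 genes were higher and 4.08% lower in both tables. The member medians were 0.36 in 2016 and 0.15 in 2017, and 29 members were above 0 in both. The highest by the smaller of the 2 tables were RPL23 at 0.35, RPL17 at 0.34, RPL27A at 0.33, RPL5 at 0.32 and RPL6 at 0.32, and the lowest RPL13 at -0.28, RPL27 at -0.20, RPL23A at -0.09, RPL28 at -0.08 and RPL29 at -0.07. The 2016 data alone gave RPL5 at 1.15 and RPL27 at -1.30, and the 2017 values of these 2 genes were 0.32 and -0.20. RPL13A was at -7.55 in 2016 because the Connexin43-APEX2 bound library of that year lists it at 0, and at 0.18 in 2017. Before centring, the median gene lay at 1.72 in 2016 and -0.15 in 2017, so the values are relative to a shift that differed between the tables.

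Connexin43-APEX2 minus H2B-APEX2 shares its H2B-APEX2 libraries with the chromatin comparison above. It gave 22 members higher and 10 lower of 50 (25.2% and 24.0% of 4810 genes), with a median of 0.71. Among the highest were RPLP1 at 2.88 ± 0.03, RPL13 at 2.86, RPL36 at 2.77 and RPL13A at 2.77. RPL5 was lowest at -2.53 ± 0.02, followed by RPL22 at -2.21, RPL36A at -2.15, RPL7 at -2.003 and RPL26 at -1.56. RPL36A, whose total RNA differed between these lines (8.67 RPKM in Connexin43-APEX2 and 3.22 in H2B-APEX2), was at -0.85 in bound RNA alone, short of 2-fold. All 4 stalk genes were higher, with a median of 2.48, and of the 5S particle RPL5 was lower and RPL11 was at -0.91. With the Connexin43-APEX2 library of 2016 in bound RNA alone, chosen after seeing the data, 8 members were higher and 11 lower in Connexin43-APEX2. Of all 10156 genes tested in that setting, 1216 were higher and 1538 lower in Connexin43-APEX2.

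Bound RNA of each line was then set against the bound RNA of the negative control, which measures what the capture holds without APEX2. All 3 comparisons share the control libraries, and the median gene was again set to 0. The members lay above the median gene in the APEX2-NES and Connexin43-APEX2 lines and on both sides of it in H2B-APEX2. In APEX2-NES the medians were 0.48 (2016) and 0.73 (2017), and 45 of 51 members were above 0 in both tables. In both tables at 2-fold, 2 members were higher, where 1.65% of all 9266 genes were, and none was lower (1.03%). They were RPL39, a small protein of the exit tunnel wall, at 1.05 and 1.10, and RPL22 at 1.05 and 1.01. The next were RPL36 at 0.95, RPL3 at 0.85 and RPL36A at 0.83, and the lowest RPL26L1 at -0.40, RPL7L1 at -0.30, RPL35 and RPL41 at 0.01 and RPL39L at 0.03.

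RPL39 had 21.2 and 42.8 RPKM in control bound RNA of 2016 and 2017, 13.8 and 82.8 in APEX2-NES, 65.5 and 64.2 in Connexin43-APEX2 and 23.0 in H2B-APEX2. In 2016 the APEX2-NES value was thus the lower one in RPKM, and RPL39 was higher only relative to the median gene, which lay at -1.64 there and at -0.16 in 2017. Without this centring, no member was higher in APEX2-NES and RPL26L1 was lower at -1.04. Reads scaled by library size with TMM factors (a trimmed mean over genes) gave 25 members higher. The shares of all genes under these settings were not counted, so no background stands beside these counts.

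Connexin43-APEX2 against the control gave member medians of 1.05 (2016) and 0.91 (2017), with 46 of 51 members above 0 in both, and 14 members were higher (2.50% of 11289 genes) and none lower (2.03%). RPL36 was highest by the smaller table, at 1.84 ± 0.05 in 2016 and 1.62 ± 0.03 in 2017, followed by RPL3 at 1.53 and 1.62, RPL22 at 2.15 and 1.33, RPL36A at 1.90 and 1.32, and RPL5 at 2.28 and 1.31. The lowest were RPL26L1 at -0.02, RPL19 at 0.16, RPL29 at 0.29, RPL39L at 0.31 and RPL12 at 0.34. Without centring 2 members were higher, and with TMM factors 28, again with no share of all genes counted.

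H2B-APEX2 against the control gave 20 members higher and 8 lower of 50 (25.2% and 17.2% of 7543 genes), with a median of 0.44. RPL5 was highest at 3.42 ± 0.02, then RPL22 at 3.33, RPL7 at 2.65, RPL23 at 2.50 and RPL26 at 2.46, and RPLP1 was lowest at -2.01 ± 0.03, with RPL13A at -1.85, RPL13 at -1.75 and RPLP0 at -1.66 also among the lowest. Against the control library of 2016, an alternative chosen after seeing the data, 26 of 51 members were higher and 3 lower (19.0% and 13.4% of all genes). In that setting RPLP1 stood at -0.61. Without centring, 14 members were higher and 11 lower with a median of 0.15, and 22 of the 28 calls were kept. The share of all genes was not counted there.

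**Figure D4:**
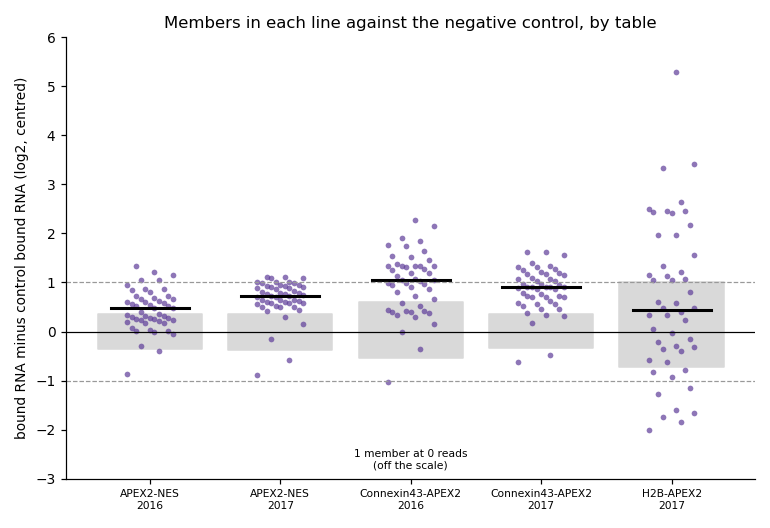
Bound RNA of each line minus bound RNA of the negative control of the same table (log2 of RPKM + 1, centred on the median gene), 1 point per member, with the black bar at the members' median, the grey box from the lower to the upper quartile of all genes tested and dashed lines at 2-fold. The medians are 0.48, 0.73, 1.05, 0.91 and 0.44 from left to right, and the H2B-APEX2 points spread from -2.01 to 5.28, the last being RPL36AL, listed at 0 in this control, above RPL5 at 3.42; RPL13A in Connexin43-APEX2 of 2016, listed at 0, is off the scale.

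Several members have a paralog whose protein can take the same place. RPL10L and RPL3L, known from testis and muscle, were below the filter in every comparison of bound RNA, and RPL22L1, the paralog of RPL22, stood at 0.31 to 3.14 RPKM in bound RNA and 0.42 RPKM in H2B-APEX2. RPL39L stood at 1.79 to 11.7 RPKM and followed RPL39, with -1.53 ± 0.10 in H2B-APEX2 minus APEX2-NES beside -1.52 ± 0.03 for RPL39. RPL26L1 was at 1.43 ± 0.15 beside 2.15 for RPL26, and RPL7L1 at 0.47 ± 0.06 beside 2.14 for RPL7. RPL36AL differed from all others: it had 28.0, 4.15 and 32.4 RPKM in the control, APEX2-NES and Connexin43-APEX2 bound libraries of 2016 and 31.0 RPKM in H2B-APEX2 bound RNA, and was listed at 0 in the other 7 columns of 2017. Its call as higher in H2B-APEX2 rests on those zeros, and no fold is given for it. The zeros extended to its neighbours: all 8 protein-coding genes listed between 50065414 and 50319921 on chromosome 14 (hg19), RPL36AL, LRR1, MGAT2, DNAAF2, POLE2, KLHDC1, KLHDC2 and NEMF, were listed at 0 in these 7 columns.

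Footprints are the RNA pieces that stayed crosslinked to captured proteins after RNase digestion, deposited as 1 pooled sheet per line with the number of crosslinked reads and clusters of each gene by region. The sheets list 52 members, and RPL41 was not analysed in footprints. The members held 1451 reads in 92 clusters in the control, 4462 in 172 in APEX2-NES, 1668 in 121 in Connexin43-APEX2 and 7504 in 493 in H2B-APEX2. These are 0.782%, 0.775%, 0.616% and 0.431% of all reads of each sheet, with exact 95% intervals of 0.743% to 0.823%, 0.752% to 0.798%, 0.587% to 0.647% and 0.421% to 0.441% that cover counting error only, as reads without molecular identifiers are not independent molecules. The H2B-APEX2 share of reads was thus the lowest. All genes together held 20850, 45015, 23104 and 133881 clusters in the control, APEX2-NES, Connexin43-APEX2 and H2B-APEX2. By clusters the H2B-APEX2 share lay close to that of APEX2-NES, with 15.2 and 25.9 reads per member cluster. Most members had reads in the H2B-APEX2 sheet: 45 members, against 35, 39 and 34 in the control, APEX2-NES and Connexin43-APEX2. That sheet was also the deepest, with 1741844 reads against 185487, 575990 and 270633 in the same order, and 50.3% of all genes had reads in it against 30.2%, 39.4% and 31.1%.

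A level of mRNA did not settle whether a footprint was listed. RPL7, RPL10, RPL14, RPL7A, RPL36A, RPL3L and RPL10L had 0 reads in all 4 sheets, although RPL7A was one of the 3 highest members in bound RNA. Of 36 members with a mean of at least 20 RPKM in bound RNA of 2017, 4 were at 0 in every sheet (11.1%), and of 194 protein-coding genes at that level 30 were (15.5%). The most reads over the sheets fell on RPL15, with 237 in the control, 546 in APEX2-NES, 199 in Connexin43-APEX2 and 1184 in H2B-APEX2. RPL37, a zinc-binding protein, had 66, 93, 17 and 941 reads in the same order. RPL5 had 74, 340, 245 and 224, RPL13 had 85, 462, 108 and 223, and RPL27A had 30, 267, 92 and 459. RPL15 alone held 12.2% to 16.3% of the member reads in the control, APEX2-NES and H2B-APEX2 sheets, and RPL5 held 14.7% in Connexin43-APEX2.

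Where in the mRNA the reads fell differed between H2B-APEX2 and the other sheets. Coding sequence held 9.67% of member reads in H2B-APEX2 (95% interval 9.02% to 10.4%), against 30.5% in the control, 23.3% in APEX2-NES and 30.0% in Connexin43-APEX2. Over all genes the coding share was 35.6% in H2B-APEX2 and 41.0% to 41.8% in the other 3. Introns held 34.8% of member reads in H2B-APEX2 (33.7% to 35.9%) and 6.41%, 5.31% and 10.9% in the control, APEX2-NES and Connexin43-APEX2, beside 19.9% of all reads in H2B-APEX2 and 3.94% to 10.4% in the others. In all, 43 members had intron reads in H2B-APEX2 and 13 had them in APEX2-NES. The 3′ UTR held 38.1% of member reads in H2B-APEX2, of which RPL15 gave 921 of 2857 and RPL37 750, and 24.8% in APEX2-NES. In APEX2-NES the largest class, 43.1%, fell in none of the listed regions, beside 15.6% over all genes.

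**Figure D5:**
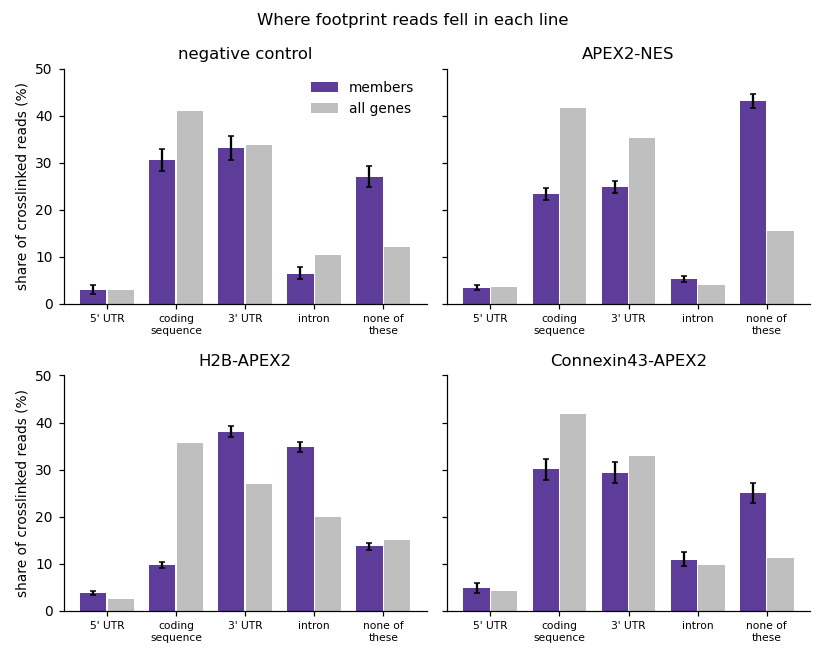
Share of crosslinked footprint reads (%) by region of the gene in each of the 4 sheets, for the members (purple, with exact 95% intervals for counting error) and for all genes (grey). In H2B-APEX2 the coding bar of the members is at 9.67% beside 35.6% for all genes and the intron bar at 34.8% beside 19.9%.

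Counted per read of the whole sheet, member reads in coding sequence were 0.231 times as frequent in H2B-APEX2 as in APEX2-NES (0.210 to 0.254), where coding reads of all genes were 0.856 times as frequent. The ratio ran from 0.177 to 0.265 when any 1 member was left out, and counted in clusters, 23 against 27, it was 0.286 (0.157 to 0.519) beside 0.544 for all genes. Intron reads of the members were 3.65 times as frequent (3.19 to 4.18), where those of all genes were 5.05 times as frequent. For the 3′ UTR the ratios were 0.853 for the members and 0.766 for all genes. Reads in none of the listed regions, 1024 in H2B-APEX2 and 1924 in APEX2-NES, were 0.176 times as frequent (0.163 to 0.190), beside 0.965 for all genes.

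Of 45 members with at least 10 reads over the H2B-APEX2 and APEX2-NES sheets, 7 were called higher in H2B-APEX2 and 12 lower, by a ratio of shares of at least 4 (or no read in the other sheet) with an interval past 2-fold, where 16.7% and 10.6% of all genes were called. The lowest ratio was that of RPLP2, with 20 reads in H2B-APEX2 and 131 in APEX2-NES, a ratio of 0.050 (0.030 to 0.081). RPL8, a protein at the peptidyl transferase centre, had 19 and 103 reads, and RPL30, which in yeast regulates its own splicing, 26 and 106, with ratios of 0.061 and 0.081. RPLP1 had 83 and 283 reads with 0.097 (0.075 to 0.124) and RPLP0 44 and 142 with 0.102 (0.071 to 0.145). The 3 P proteins of the stalk were thus low in H2B-APEX2 in footprint reads, as in bound RNA. In clusters they were not low: RPLP2, RPLP1 and RPLP0 had 3, 8 and 7 of 133881 there, and 1, 2 and 2 of 45015 in APEX2-NES. Their shares of reads in APEX2-NES were 0.715, 0.665 and 1.17 times those in the control. All 131 RPLP2 reads in APEX2-NES were in coding sequence, and all 20 in H2B-APEX2 were intronic.

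Among the 7 members called higher, RPL23 had 243 reads in H2B-APEX2 and 18 in APEX2-NES, a ratio of 4.46 (2.77 to 7.66), and the other 6 had no read in APEX2-NES. By the lower end of its interval, RPL37A with 182 reads in H2B-APEX2 was at least 16.2-fold higher. On the same measure RPL11 with 174 reads was at least 15.4-fold higher and RPL21 with 149 reads at least 13.2-fold. RPL35, RPL22L1 and RPL39 had 71, 39 and 25 reads, and their intervals began at 6.20-fold, 3.33-fold and 2.08-fold. For RPL22L1 and RPL39 the interval thus does not show 4-fold. Of the 174 RPL11 reads 170 were intronic, and of the 182 RPL37A reads 102 were.

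RPL5 parted from its own bound RNA in footprint reads, though not in clusters. Its bound RNA was the highest of all members in H2B-APEX2, but its share of footprint reads was lower there than in APEX2-NES. It had 224 against 340 reads, a ratio of 0.218 (0.183 to 0.259). In clusters its share was not lower, with 24 of 133881 in H2B-APEX2 and 5 of 45015 in APEX2-NES. Of the 224 reads 207 were intronic and none was in coding sequence, where APEX2-NES had 127 and Connexin43-APEX2 86. Exonic footprint ratios of H2B-APEX2 against APEX2-NES were set beside the bound RNA difference, for 40 members with at least 10 exonic reads over both sheets. Pearson's r was 0.16, and over 2356 protein-coding genes with as many reads 0.35, the points sharing sheets and libraries. Of the 10 members higher in bound RNA, 2 had an exonic ratio above 1, and of the 16 lower in bound RNA 3 had. Among protein-coding genes these were 433 of 658 and 83 of 458.

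Connexin43-APEX2 footprints against APEX2-NES gave 4 members higher and 9 lower of 40 (6.27% and 11.6% of all genes). RPL37A had 110 reads in 3 clusters and none in APEX2-NES, at least 62.4-fold higher by the lower end of its interval. RPL38 had 79 and 26 reads, a ratio of 6.47 (4.11 to 10.5). RPL19 had 145 reads in APEX2-NES and RPLP2 131, and neither had a read in Connexin43-APEX2. Their intervals ended at ratios of 0.055 and 0.061. Against H2B-APEX2 the counts were 4 higher and 8 lower of 44 (10.4% and 16.7%). RPLP1 at 93 and 83 reads (7.21, 5.31 to 9.82) and RPL5 at 245 and 224 reads (7.04, 5.85 to 8.48) were highest. RPL21 at 0 and 149 reads was lowest, with an interval that ended at 0.161. RPLP1 reads in Connexin43-APEX2, all 93, lay in coding sequence.

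Against the control sheet, H2B-APEX2 gave 6 members higher and 8 lower of 44 (8.99% and 6.10% of all genes), APEX2-NES 8 and 8 of 42 (10.6% and 7.04%) and Connexin43-APEX2 6 and 11 of 38 (11.8% and 12.6%), all 3 sharing the control sheet. RPL31, RPL38 and RPL32, named after their values were seen, were called higher in all 3 lines: RPL31 had 0 reads in the control, 31 in APEX2-NES, 44 in Connexin43-APEX2 and 88 in H2B-APEX2. In the same order RPL38 had 0, 26, 79 and 138 reads and RPL32 had 5, 91, 60 and 302. Likewise RPL39 was called lower in all 3, with 19, 0, 0 and 25 reads, as was RPL27, with 48, 16, 7 and 25. How many of all genes were called in all 3 lines was not counted. These calls rest on few clusters, and in clusters in place of reads none of the members was called against the control.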

How the data were processed

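The 12 samples form 12 groups of 1. Per the submitters' processing notes, bcl2fastq 2.17.1 and TopHat were used with hg19. The sources used here do not give the counter, the annotation or the cluster caller. The authors deposited expected counts (partly fractional, with 0.001 standing for 0 reads) and RPKM on the listed merged-exon length (1e-07 for 0), and for footprints counts of crosslinked reads and clusters per gene in 1 pooled sheet per line. Every sample column of the tables was used (0 were left out). Repeat columns of 2016 and 2017 were treated as repeats of 1 sample.

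From these, log2(RPKM + 1) was compared for genes with a mean of at least 1 RPKM, centred on the median gene between lines, and called at 2-fold, one direction being required of the 2016 and 2017 values where both exist. Counting errors came from the delta method. Footprint shares were compared by ratios with exact conditional (Clopper-Pearson) 95% intervals, at 10 or more reads over the pair, and called at 4-fold with the interval past 2-fold. Genes were named by rule: the 3 highest members in bound RNA, the 5 highest and 5 lowest with reads in every library of a comparison, the extremes and most read members in footprints, members listed at 0 and the role groups. The values of 1 member are not reported here, and plots leave it out. The comparison code was checked on simulated counts. The members and all lists were chosen with earlier results of these data known. Alternatives were another pseudocount, filter, centring and scaling, GC correction, single tables, exonic reads and clusters. Start sequences are from RefSeq (GRCh38.p14); no coordinates were moved between builds. Python 3.11.15, numpy 2.4.6, pandas 2.3.3, scipy 1.17.1, matplotlib 3.10.9, R 4.3.3 and edgeR 4.0.16 (for TMM factors, on expected counts as deposited) were used.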

Additional observations from a re-analysis of the deposited data

Results flagged for a closer look

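RPL18 and RPL28 lay on opposite sides of the control in different lines. In bound RNA against the control, RPL18 was at 1.21 in Connexin43-APEX2 (the smaller of the tables) and -1.59 in H2B-APEX2, and RPL28 at 1.08 and -1.27. The difference between the lines was not tested, each line has 1 sample, and both comparisons share the control library of 2017. Against the control library of 2016, the H2B-APEX2 values were -0.64 for RPL18 and 0.17 for RPL28, so that RPL28 was then on the same side in both lines. GC content was 58.2% in RPL18 and 55.2% in RPL28, and its part in these values was not tested.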

How the results depend on the processing

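No paired analysis was possible because each group has 1 sample and the labels give no replicate numbers, and no replicate could be left out. Of the counts, medians and shares recomputed, 104 stayed within the spread allowed (1.5 times for counts), 65 moved past it and 3 reversed. Of the 34 H2B-APEX2 minus APEX2-NES calls, 34 were kept with a pseudocount of 0.1 RPKM, no filter, no centring or TMM factors. With the GC trend removed 26 were kept (9 members higher and 20 lower). With the APEX2-NES library of 2016, 24 were kept (18 higher and 10 lower). Single-table and cross-year settings were chosen after seeing the data. With the Connexin43-APEX2 library of 2016, 8 members were higher than in H2B-APEX2, and RPL13A, listed at 0 there, turned to -5.60. With the control library of 2016, 3 members were lower in H2B-APEX2.

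Connexin43-APEX2 minus APEX2-NES gave 1 higher and 2 lower in 2016 alone. APEX2-NES against the control gave 15 higher with a pseudocount of 0.1 RPKM, 0 higher and 1 lower without the filter or without centring, 25 higher with TMM factors, 5 in 2016 alone and 7 in 2017 alone. Connexin43-APEX2 against the control gave 24, 2, 2 and 28 higher under these first 4 settings, and 27 higher and 2 lower in 2016 alone. For those first 4 settings the share of all genes was not counted.

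The median of bound minus total RNA reversed in the control of 2016 to -0.14 when centred on all genes and -4.78 with TMM factors, and in Connexin43-APEX2 of 2016 to -3.52 with TMM factors. Centred medians were otherwise -3.25 (control, 2017), -0.63 (APEX2-NES, 2016), 0.56 (Connexin43-APEX2, 2016) and -2.64 (H2B-APEX2). With TMM factors they were -4.15 (control, 2017), -3.29 and -2.87 (APEX2-NES, 2016 and 2017), -2.70 (Connexin43-APEX2, 2017) and -3.26 (H2B-APEX2). The cause was not tested.

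In footprints counted by clusters fewer genes could be tested. H2B-APEX2 against APEX2-NES then gave 0 higher and 1 lower of 27, Connexin43-APEX2 against APEX2-NES 0 and 0 of 10, Connexin43-APEX2 against H2B-APEX2 1 and 0 of 25, and against the control 0 and 0 of 24 (H2B-APEX2), 7 (APEX2-NES) and 8 (Connexin43-APEX2). At 20 or more reads, Connexin43-APEX2 against APEX2-NES gave 2 higher and APEX2-NES against the control 5 lower. In exonic reads alone, Connexin43-APEX2 against H2B-APEX2 gave 11 higher and 5 lower, and H2B-APEX2 against the control 15 lower.

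By clusters, the shares in 5′ UTR, coding sequence, 3′ UTR, intron and none of these were 5.43%, 22.8%, 41.3%, 15.2% and 15.2% in the control, 7.56%, 15.7%, 44.2%, 14.5% and 18.0% in APEX2-NES, and 3.04%, 4.67%, 22.5%, 61.3% and 8.52% in H2B-APEX2. In Connexin43-APEX2 they were 20.7%, 40.5%, 18.2% and 15.7% from coding sequence on.

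The main limits are 1 sample per group, read counts that cover counting error only, and 92 to 493 member clusters per footprint sheet. Further limits are copies that share reads with members, among them RPL7, RPL7A, RPL9, RPL13A, RPL15, RPL17, RPL21, RPL36A and RPL41. Another is the H2B-APEX2 bound library, which exists in 1 table and stood apart from the others.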

Other observations

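Within the listed coordinates of 19 tested members lie 39 snoRNA genes, whose products guide the modification of ribosomal RNA and are released from spliced introns. In H2B-APEX2 minus APEX2-NES, 4 of these hosts were higher and 8 lower with a median of -0.43, and of the other 31 members 10 were higher and 12 lower with a median of -0.47. The difference between hosts and others was not tested. In footprints, introns held 34.7% of the reads of hosts in H2B-APEX2 and 34.9% of those of the other members. In APEX2-NES these shares were 7.41% and 3.63%.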
